A study of Mus musculus with 2 samples.

Results

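Endothelial cells line blood vessels and hold to each other through VE-cadherin, the junction protein encoded by Cdh5. In the E11.5 mouse yolk sac, cells sorted as carrying VE-cadherin on their surface (the positive gate) were compared with cells sorted as lacking it (the negative gate). All wells of these gates with at least 500 genes were used: 357 positive and 379 negative wells, 736 of the 2644 sorted wells that passed this minimum in the whole series. The positive gate had 31 wells under the minimum and the negative gate had 4. The embryos were wild-type C57Bl/6. The yolk sac and the aorta-gonad-mesonephros region (AGM) of E9.5 and E11.5 embryos had been sorted with an antibody to VE-cadherin and with 7AAD, a dye that enters dead cells. Single Hoechst-positive cells were then picked by imaging on ICELL8 nanowell chips, 1 chip per stage, and sequenced together. No transgene, knockout or treatment was part of the design.

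Each gate is a single sorted pool, so there is no replicate and no test. How many embryos went into a pool is not given in the sources used here. The wells of a gate were added up gene by gene, the sums were scaled to counts per 1e6 counts of the pool (CPM), and gates were compared as the log2 ratio of positive over negative. The interval given beside a ratio is an exact conditional binomial 95% interval; it covers counting error only, neither the spread between embryos or sorts nor any copies of 1 molecule. A gene was measured if it had at least 20 counts over both gates. It is called higher or lower where the gates were at least 2-fold apart and the interval left out 0. In sums over wells, fewer cells of a type and less RNA per cell cannot be told apart.

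The yolk sac is the site of the earliest blood formation in the mouse. Its outer layer, the visceral endoderm, takes up and secretes proteins and lipids much as the liver does later. Beneath it lies a mesoderm layer with blood vessels, primitive red cells, macrophages, fibroblast-like and smooth muscle cells, covered by mesothelium. Haemogenic endothelial cells, which depend on Runx1, leave the vessel wall to become blood cells in the yolk sac and in the AGM.

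The positive pool held 1227249 counts and the negative pool 1630507, with medians of 3008 and 3842 counts per well. Median gene numbers per well were 762 and 1067. Haemoglobin took 35.6% of the positive and 32.9% of the negative pool, against 25.5% and 3.47% in the positive and negative E11.5 AGM pools. On the same chip, 47 positive control wells, which received RNA of E14FF embryonic stem cells, held 2.39% haemoglobin counts, and 47 negative control wells held 23.8% of only 17289 counts. The 2 chips share 473 well barcodes. Wells of the 8 pools that were used numbered from 287 to 379 per pool.

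The gene of the sorted protein followed the labels. Cdh5 (chr8:104101613-104144504, GRCm38) had 297 counts in the positive and 18 in the negative pool, 242 and 11 CPM, a log2 ratio of 4.45 (3.77 to 5.23). It was counted in 44.5% of positive and 4.75% of negative wells. Thinned to 1000 counts per well, which all 736 wells reached, the expected shares were 19.8% and 1.54%. Since VE-cadherin chose the cells, this ratio checks the labels and is no finding.

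Of 8410 measured genes, 724 (8.61%) were called higher and 1008 (12%) lower in the positive gate. The median log2 ratio of all measured genes was -0.13. With totals that leave out haemoglobin, 787 genes (9.36%) were higher and 922 (11%) lower, and the median was -0.07. With totals that also leave out mitochondrial rows and Gm42418, a row of ribosomal RNA with 16.8% and 16.0% of the counts, the split turned to 942 higher and 763 lower. Genes called higher thus made up 41.8% of the calls on full totals and 55.2% on those totals. On those totals the median of all genes was 0.06, so ratios shift up by the same step for every gene, and the direction of a gene near 0 depends on the choice.

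**Figure D1:**
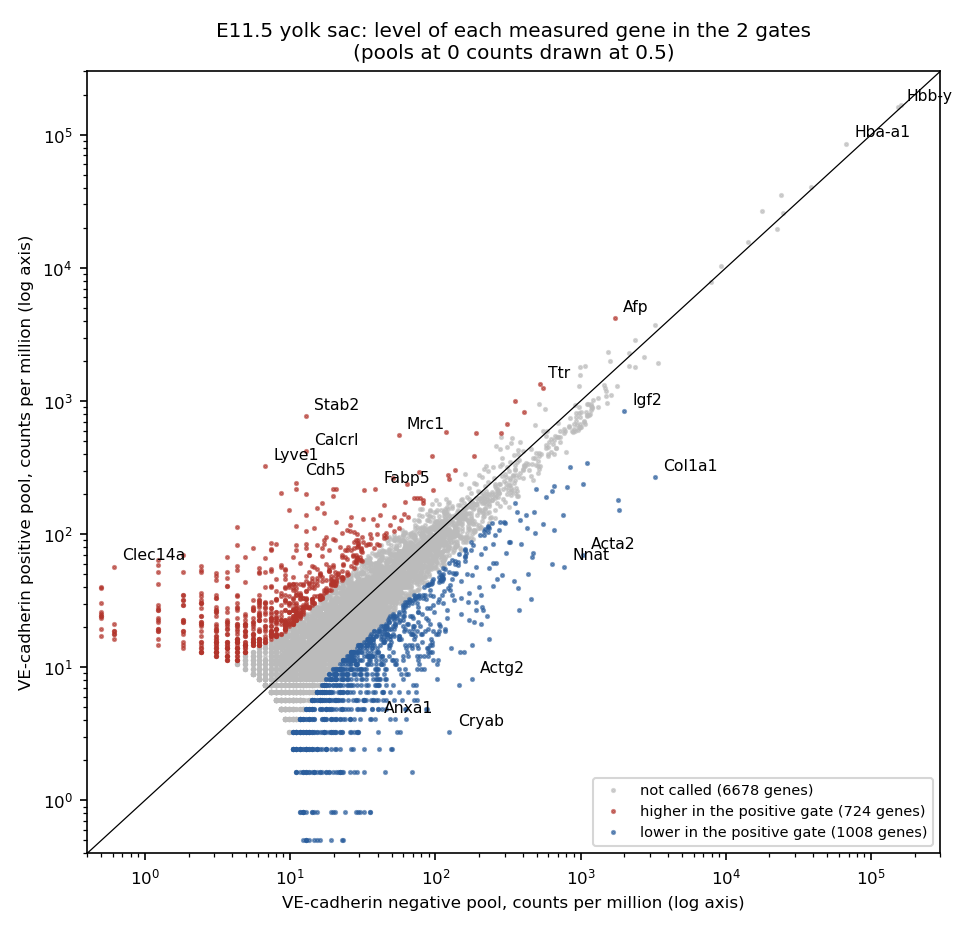
Pool CPM of each gene with at least 20 counts over both gates, negative gate against positive gate, both axes logarithmic, with genes called higher or lower coloured. Stab2, Lyve1, Cdh5 and other endothelial genes lie on the positive side, while Acta2, Col1a1 and Col3a1 lie on the negative side.

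Genes of the vessel lining stood high in the positive gate. Ranked by the lower bound of the interval, the first 3 were Stab2 and Lyve1, both hyaluronan receptors of sinusoidal and lymphatic endothelium, and Calcrl, the receptor of adrenomedullin. The highest ratio of the 14 leading genes was that of Clec14a, an endothelial surface lectin, with 70 counts against 1, 6.54 (4.01 to 11.86). The upstream sequences of 4 of the leading genes were chosen for display because they hold a motif of ETS factors. ETS transcription factors, among them Erg and Fli1 whose levels follow below, bind a GGAA core that is common in endothelial promoters. The sequences are the 250 bases before the start site given with each promoter, 5′ to 3′ on the gene's strand, from RefSeq (GRCm38.p6). The letters AGGAAG or their reverse complement CTTCCT are in capitals. That start site is not the outer end of the gene's span. The spans of Stab2, Calcrl and Flt1 reach to 87008038, 84425405 and 147726438, so their marked motifs lie inside the spans. The span of Emcn begins at 137341062, within the printed window but past its motifs.
Stab2 (chr10:87007943-87008192, minus strand): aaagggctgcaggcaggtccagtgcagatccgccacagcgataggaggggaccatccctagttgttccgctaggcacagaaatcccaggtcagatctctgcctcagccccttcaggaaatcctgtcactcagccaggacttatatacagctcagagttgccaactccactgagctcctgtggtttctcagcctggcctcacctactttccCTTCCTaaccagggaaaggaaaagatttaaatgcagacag
Calcrl (chr2:84425267-84425516, minus strand): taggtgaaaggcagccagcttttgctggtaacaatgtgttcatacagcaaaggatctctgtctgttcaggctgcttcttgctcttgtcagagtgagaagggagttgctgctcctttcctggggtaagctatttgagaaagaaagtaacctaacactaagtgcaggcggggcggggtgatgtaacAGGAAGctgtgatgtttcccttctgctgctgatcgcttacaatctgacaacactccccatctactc
Flt1 (chr5:147726012-147726261, minus strand): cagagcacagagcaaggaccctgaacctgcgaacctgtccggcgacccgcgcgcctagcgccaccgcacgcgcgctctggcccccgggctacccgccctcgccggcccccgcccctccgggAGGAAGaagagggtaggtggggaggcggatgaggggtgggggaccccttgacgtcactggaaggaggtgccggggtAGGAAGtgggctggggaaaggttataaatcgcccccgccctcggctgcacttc
Emcn (chr3:137340828-137341077, plus strand): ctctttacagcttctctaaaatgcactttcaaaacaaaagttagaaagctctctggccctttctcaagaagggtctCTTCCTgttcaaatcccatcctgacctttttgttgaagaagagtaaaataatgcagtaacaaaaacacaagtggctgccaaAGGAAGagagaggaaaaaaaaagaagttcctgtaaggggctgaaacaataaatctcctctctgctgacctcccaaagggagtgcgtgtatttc
The motif begins at base -40 in Stab2, at -66 in Calcrl, at -129 and -53 in Flt1 and at -174 and -93 in Emcn, counted back from the start site. Promoters of 300 bases, 250 before to 50 after the start, were searched on both strands. Of the 14 genes farthest above 0, 8 had a promoter sequence and 5 of these (62.5%) held AGGAAG, the 4 shown and Gimap4, while Kdr, Clec14a and Pcdh17 did not. Among 14 genes farthest below 0, 8 had sequences for 9 promoters, of which 4 (44.4%), belonging to 3 genes, held it. Of all 32851 promoters, 35.4% did. The GATA site AGATAA was in none of the 8 higher promoters and in 11.2% of all. A match describes letters in a window and says nothing of binding.

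Stab2 (chr10:86841194-87008038) had 943 counts in the positive and 21 in the negative gate, 768 and 12.9 CPM, a log2 ratio of 5.90 (5.28 to 6.60). It was counted in 64.1% of positive and 5.28% of negative wells. Lyve1 had 399 and 11 counts, a log2 ratio of 5.59 (4.74 to 6.60), with 48.7% and 2.64% of wells. Calcrl had 517 and 21 counts, a log2 ratio of 5.03 (4.40 to 5.74). In the other tissue of the same stage the ratios were smaller: in the E11.5 AGM pair Stab2 stood at 1.69, Lyve1 at 3.36 and Calcrl at 2.70. In the E9.5 yolk sac pair they stood at 6.70, 6.32 and 6.44. In the E9.5 AGM pair Stab2 at 0.88 (-0.05 to 1.88) and Lyve1 at 0.24 (-0.40 to 0.90) were not called, and Calcrl stood at 3.47.

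The scavenger and sinusoidal endothelium list had 10 measured members, of which 8 were higher and none lower, with a median of 3.39. Besides Stab2 and Lyve1 its leading members were Gpr182, a receptor of sinusoidal endothelium, with 71 and 4 counts and a ratio of 4.56 (3.14 to 6.47), and Mrc1, the mannose receptor, with 678 and 91 counts and a ratio of 3.31 (2.99 to 3.64). Colec12 at 0.95 and Ehd3 at -0.22 were not called. Mrc1 also belongs to the macrophage list. The list's median was 2.21 in the E11.5 AGM pair and 6.32 in the E9.5 yolk sac pair. In the E9.5 AGM pair it was 0.64, with 2 of 9 measured members higher and 1 lower.

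All 11 measured members of the endothelial marker list were called higher, with a median of 4.26, from 1.58 for Eng to 5.41 for Emcn. Cdh5, whose protein chose the cells, is among them. The list summed to 1351 CPM in the positive and 81.0 in the negative gate. It summed to 141 CPM in the positive control wells of stem cell RNA and to 521 CPM in the negative control wells. These control sums rest on few counts, 7 of them of Pecam1 in the positive control wells. They therefore give no baseline for cells that are not endothelial. Kdr, the main receptor of VEGF, had 250 and 14 counts and a ratio of 4.57 (3.79 to 5.46). Flt1, a VEGF receptor that mostly acts as a sink, had 270 and 18 counts and a ratio of 4.32 (3.63 to 5.09). Esam, a junction protein, had 48 counts against 0, a ratio of 4.41 with the empty gate set to 3 counts. Pecam1, a junction and adhesion protein, had 186 and 16 counts and a ratio of 3.95 (3.21 to 4.79). Egfl7, Cldn5 and Sox18 had too few counts to be measured.

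The VEGF, Tie and apelin receptor list had 12 members, 10 higher and none lower. The list also holds Cdh5, the gene of the sorted protein, whose call among the 10 is no finding. Tek, the angiopoietin receptor, had 192 and 25 counts and a ratio of 3.35 (2.75 to 4.01). Ptprb, the phosphatase that restrains it, had 210 and 27 counts and a ratio of 3.37 (2.79 to 4.00). Nrp1 at -0.68 (-0.95 to -0.41) and Nrp2 at -0.63 (-0.99 to -0.27), co-receptors of VEGF and semaphorins, lay on the other side of 0 without being called. In the junction and adhesion list 8 of 11 were higher, Cdh5 again among them. Jam3, Mcam and Podxl were not called.

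**Figure D2:**
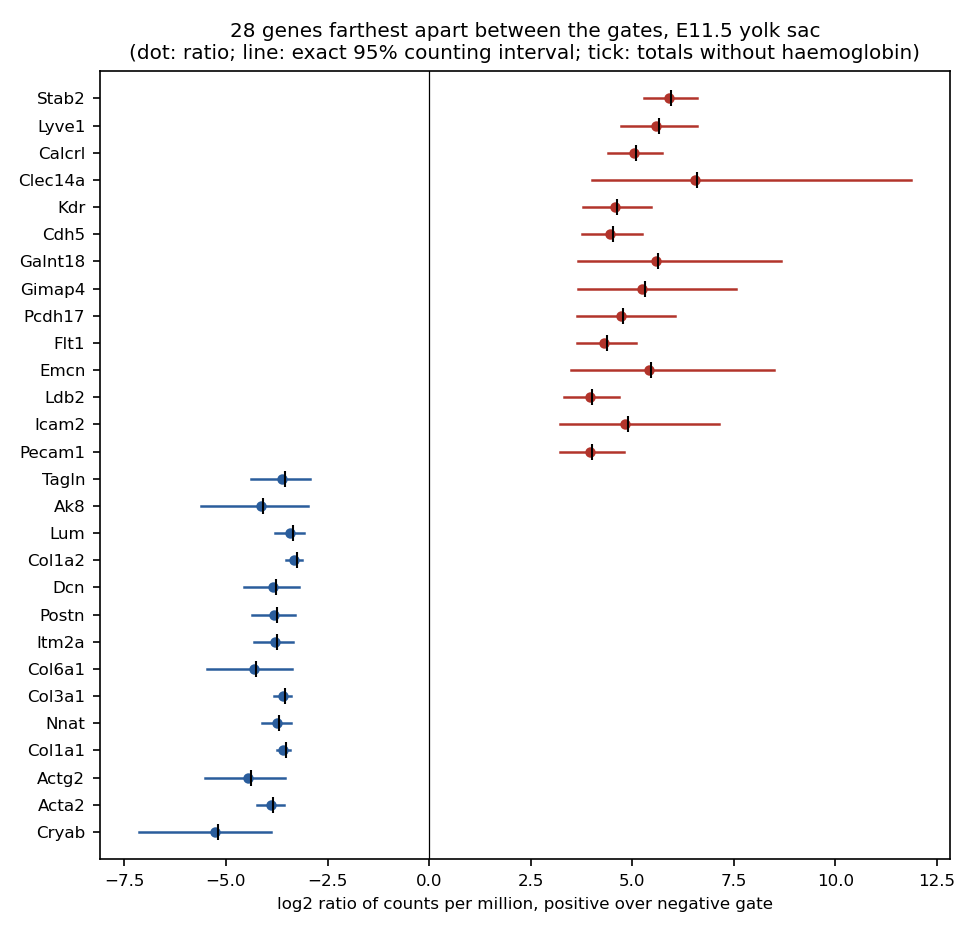
Log2 ratio of positive over negative gate with exact 95% intervals (counting error only) for the 14 genes farthest from 0 in each direction. The lower bound is highest for Stab2, 5.28, while the highest ratio is that of Clec14a, 6.54, with a wider interval (4.01 to 11.86); Cryab has the lowest ratio of the genes shown, -5.26.

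Arterial and venous genes were both on the positive side. Of 10 measured arterial members 7 were higher, with a median of 1.69, led by Sox17, an arterial and haemogenic transcription factor. Sox17 had 30 counts against 0, a ratio of 3.73 with the empty gate set to 3 counts. Notch4 followed with 27 and 2 counts, 4.16 (2.17 to 7.28), then Efnb2, the arterial ephrin, with 61 and 15 counts, 2.43 (1.60 to 3.36), and Gja4, a gap junction protein, with 18 and 2 counts, 3.58 (1.52 to 6.73). Restricted to members with at least 100 counts the median of the arterial list was -0.68, since Nrp1 is the only member with that many. Of 10 venous members 7 were higher and 1 lower, with a median of 1.99. Emcn, a sialomucin of veins and capillaries, had 64 and 2 counts, 5.41 (3.50 to 8.49). Slc7a7 had 39 and 4 counts, 3.70 (2.22 to 5.64), and Aplnr, the apelin receptor, 52 and 17 counts, 2.02 (1.21 to 2.91). The lower one was Nr2f2, the venous transcription factor that mesenchyme also expresses, with 19 and 72 counts and a ratio of -1.51 (-2.32 to -0.77).

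Factors of the endothelial-to-haematopoietic transition were less far apart. Of 6 measured members 3 were higher: Erg with 66 and 7 counts at 3.65 (2.52 to 5.02), Fli1 with 133 and 40 counts at 2.14 (1.62 to 2.69), and Runx1 with 59 and 35 counts at 1.16 (0.54 to 1.81). Erg and Fli1 are ETS factors of endothelium. Tal1 at 0.55, Lyl1 at 0.99 and Cbfb at -0.16 were not called. Runx1 was counted in 10.1% of positive and 6.86% of negative wells, and its ratio was 2.70 in the E11.5 AGM pair and 2.24 in the E9.5 yolk sac pair. With equal weight per well it fell to 0.88 and under the 2-fold line.

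In the list of haemogenic and emerging blood genes 6 of 10 were higher and none lower. Spi1, the myeloid factor PU.1, had 24 counts against 0, a ratio of 3.41 with the empty gate set to 3 counts. Mecom, a factor of haemogenic and stem cells, had 151 and 34 counts, 2.56 (2.02 to 3.14). Ptprc, which encodes CD45, had 39 and 9 counts, 2.53 (1.46 to 3.76), and Cd34 had 60 and 21, 1.92 (1.19 to 2.72). Kit, the stem cell factor receptor, had 24 and 9 counts, 1.82 (0.67 to 3.11), and without the deepest 5% of wells 1.11, no longer called. Itga2b, Ikzf1, Ikzf2 and Cd44 were not called.

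Macrophage genes were on the positive side as well. Of 10 measured members 9 were higher, with a median of 3.18, and the list summed to 1058 CPM against 127. After Mrc1 came C1qb, a complement subunit, with 56 and 5 counts, 3.90 (2.59 to 5.57), Fcer1g, a signalling chain of Fc receptors, with 103 and 13 counts, 3.40 (2.56 to 4.35), and F13a1, a clotting factor of macrophages, with 176 and 28 counts, 3.06 (2.48 to 3.69). Csf1r, the receptor these cells need to live, had 67 and 15 counts, 2.57 (1.75 to 3.48). Lyz2 with 15 and 10 counts was not called. The median was 5.00 in the E11.5 AGM pair. Of the platelet list, 2 of 5 were higher, Pf4 at 1.89 (1.56 to 2.23) and Vwf at 1.74 (1.02 to 2.51). Vwf also belongs to the venous list. At least 3 platelet markers were counted in 1.68% of positive and 1.58% of negative wells. Of the mast cell and granulocyte list 1 of 3 was higher, Mpo, of whose 33 positive counts 19 lay in 1 well. Of the neural list, Nes at 1.61 (0.97 to 2.28) and Stmn2 at 1.90 (0.81 to 3.10) were higher, the only 2 measured members. Neither measured pluripotency gene was called.

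Whether endothelial and macrophage genes lay in the same wells was counted directly. At least 3 endothelial markers, Cdh5 among those counted, were found in 146 of 357 positive wells, 40.9% (exact binomial interval 35.8 to 46.2). They were found in 1 of 379 negative wells and in none of the 47 positive control wells. None of the 47 negative control wells had 3, but their median of 329 counts left little room for it, so this says little. At least 3 macrophage markers were found in 62 positive wells, 17.4% (13.6 to 21.7), and in 5 negative wells. The line of 3 markers cuts a range: 66 positive wells had exactly 2 endothelial markers and 48 had exactly 3. In 126 positive wells only the endothelial line was passed, in 42 only the macrophage line, in 20 both and in 169 (47.3%) neither. Median counts per well were 2970, 3062, 3841 and 2957 in these classes, while haemoglobin took 30.2%, 24.9%, 23.1% and 45.2% of their counts. Wells that passed neither line had a median depth close to that of the endothelial class, a larger haemoglobin share and fewer genes, a median of 638 against 926.

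The leading genes spread over these classes differently, each gene being left out of its own marker count. Stab2 reached 1513 CPM (Poisson interval 1399 to 1633) in endothelial wells, 357 (269 to 465) in macrophage wells, 647 in wells with both and 311 (266 to 362) in wells with neither. Calcrl stood at 830, 97.5, 432 and 185 CPM. Mrc1 went the other way, with 437 CPM in endothelial and 1663 in macrophage wells, as did Dab2, an endocytic adaptor, with 464 and 1664. Lyve1 was nearer even, 556 and 344 CPM, and Stab1 had 225 and 429. Pf4 had 92.0 CPM in endothelial and 1092 in macrophage wells. Runx1 had 25.3 CPM (12.6 to 45.3) in endothelial wells and 156 (99.9 to 232) in macrophage wells, and Ptprc 13.8 and 91.0. Kit had 36.8 CPM (21.0 to 59.7) in endothelial wells and 1.83 (0.05 to 10.2) in wells with neither.

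**Figure D3:**
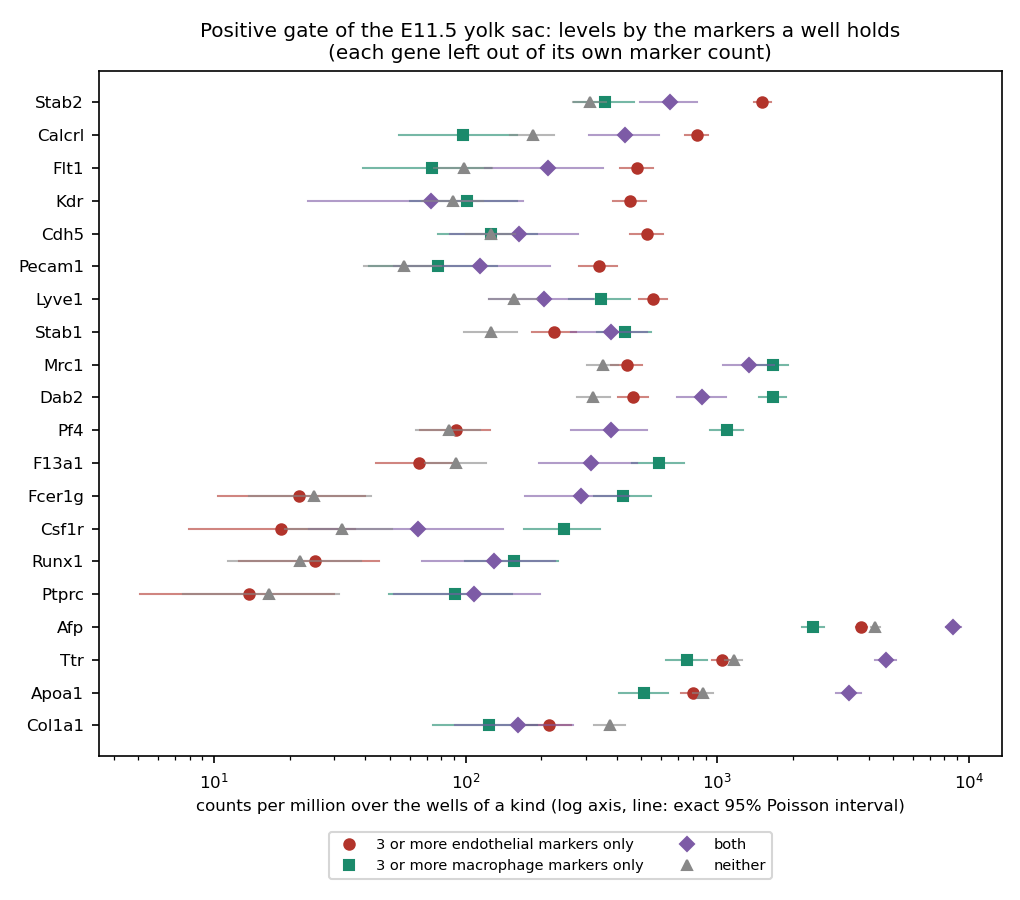
CPM of selected genes in the wells of the positive gate, split into wells with at least 3 endothelial markers, at least 3 macrophage markers, both or neither, each gene left out of its own marker count. Stab2 and Calcrl are highest in endothelial wells, and Mrc1, Dab2, Pf4 and Runx1 in macrophage wells.

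Visceral endoderm genes were higher in the positive gate by a smaller and even amount. Of 15 measured members 13 were higher and none lower, with a median of 1.32 and a range of 0.95 to 1.66. Afp, the fetal albumin-like carrier protein, had 5129 and 2811 counts, 4179 and 1724 CPM, a ratio of 1.28 (1.21 to 1.34). Ttr, the carrier of thyroid hormone and retinol, had 1641 and 855 counts, 1.35 (1.23 to 1.47). Apoa1 had 1218 and 578, 1.49 (1.34 to 1.63), and Apoa2 708 and 310, 1.60 (1.41 to 1.80), both apolipoproteins. Amn and Hnf4a, with 16 and 11 and with 15 and 8 counts, were not called. In the E9.5 yolk sac pair the list's median was -1.92 and in the E11.5 AGM pair 0.42.

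These genes were not limited to a few wells. At least 3 of the list were counted in 356 of 357 positive and 339 of 379 negative yolk sac wells. In the E11.5 AGM pools this was so in 7.67% of positive and 4.44% of negative wells, and in 14.9% of the positive control wells. The list took a median of 6050 CPM in positive and 2501 CPM in negative wells, with middle quartiles of 4472 to 8653 and 1608 to 3516. Medians were 356 and 271 CPM in the AGM gates, 552 in the positive and 3663 in the negative control wells, the last with a median of 329 counts in all. A single positive well held 1658 of the 10823 counts of the list, among 12108 counts and 2947 genes. Without it the list stood at 7542 CPM, the median ratio was 1.11, and 9 of 15 members were called, Ttr at 0.99, Apob at 0.91, Rbp4 at 0.68 and S100g at 0.84 being no longer called. The same well passed both marker lines above; without it Afp in the remaining 19 wells of that class was 2594 CPM, against 8696 with it. RNA from outside the cells was not separated from that of the cells, and its part in this list was not tested.

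Red cell genes did not separate the gates. None of 18 erythroid genes was called, with a median of 0.11. At least 3 of them were counted in 86.8% of positive and 92.6% of negative wells, against 21.3% of positive and 6.38% of negative control wells. The list summed to 2814 CPM in the positive and 2520 in the negative gate, and to 2256 in the negative control wells, which had few counts. None of 7 measured globins was called: Hbb-y, the embryonic beta chain, had a ratio of 0.08, Hba-a1 0.34 and Hbb-bh1 -0.20. In the E11.5 AGM pair the globin median was 2.84 and in the E9.5 yolk sac pair -1.01. The list of haem synthesis and iron had 1 of 18 called, Hmox1, which breaks haem down, with 28 and 10 counts at 1.90 (0.81 to 3.10).

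On the lower side stood the genes of mesenchyme, smooth muscle and connective tissue. All 10 measured mesenchymal markers were lower, with a median of -3.50, and the list summed to 793 CPM in the positive against 8768 in the negative gate. Col1a1 (chr11:94936224-94953042), the main chain of type I collagen, had 331 and 5284 counts, 270 and 3241 CPM, a ratio of -3.59 (-3.75 to -3.43). It was counted in each of the 379 negative wells and in 40.1% of the positive ones. Col3a1 had 185 and 2994 counts, -3.61 (-3.83 to -3.39). Postn, a matrix protein of growing connective tissue, had 33 and 617, -3.81 (-4.37 to -3.31), and Dcn, the proteoglycan decorin, 20 and 380, -3.84 (-4.57 to -3.19). At least 3 mesenchymal markers were counted in 377 of 379 negative and 58 of 357 positive wells, 99.5% and 16.2%, and in 12.8% of positive control wells. In the negative control wells, with a median of 329 counts, the list summed to 3239 CPM and 10.6% of wells reached 3 markers.

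Smooth muscle markers were lower in 9 of 9, with a median of -3.61. Acta2 (chr19:34240336-34255585), smooth muscle actin, had 85 and 1682 counts, 69.3 and 1032 CPM, -3.90 (-4.23 to -3.58), and was counted in 92.3% of negative and 19.3% of positive wells. Actg2, the enteric actin, had 10 and 290 counts, -4.45 (-5.52 to -3.55). Tagln, an actin-binding protein, had 18 and 293, -3.61 (-4.39 to -2.93), and Myl9, a myosin light chain, 26 and 335, -3.28 (-3.91 to -2.70). The list summed to 280 CPM in the positive and 2205 in the negative gate, and to 1041 in the negative control wells, which had few counts. At least 3 smooth muscle markers were counted in 73.1% of negative and 3.36% of positive wells, against 10.6% of positive control wells and none of the negative control wells. In the negative gate, therefore, most wells carried both sets. Myh11, the smooth muscle myosin, had 1 and 39 counts, -4.88 (-10.22 to -2.31), and Des, the filament protein desmin, 1 and 25, -4.23 (-9.59 to -1.62); they were counted in 7.92% and 6.07% of negative wells.

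Cryab, a small heat shock protein of muscle, had 4 and 204 counts, a ratio of -5.26 (-7.15 to -3.88). Nnat, an imprinted membrane protein, had 70 and 1254 counts, -3.75 (-4.12 to -3.41), and was counted in 90.2% of negative wells. Itm2a had 40 and 741 counts, -3.80 (-4.30 to -3.34), Lum 73 and 1038, -3.42 (-3.78 to -3.08), and Ak8 6 and 141, -4.14 (-5.62 to -2.99). Mesothelial markers were sparse. Upk3b had 1 and 48 counts, -5.18 (-10.51 to -2.63), and Upk1b 0 and 20, a ratio of -2.33 with the empty gate set to 3 counts. Krt8 at -0.53 and Krt18 at -0.30 were not called. No positive and 8 negative wells had at least 3 of them; 0 of 357 allows a share of up to 1.03% (exact binomial).

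All 23 fibrillar collagens and collagen-processing genes were lower, with a median of -2.86. Of 16 proteoglycans, glycoproteins and elastic fibre genes 14 were lower, among them Tnc with 30 and 367 counts, -3.20 (-3.79 to -2.66), Vcan with 89 and 763, -2.69 (-3.02 to -2.37), and Fn1 with 290 and 1683 counts, -2.13 (-2.31 to -1.95). Of 15 basement membrane genes 7 were lower and none higher, with a median of -0.73. Col4a1 and Col4a2, the type IV collagen chains that form most basement membranes, were near 0: Col4a1 had 605 and 989 counts, -0.30 (-0.45 to -0.15), and Col4a2 230 and 312, -0.03 (-0.28 to 0.22). Their ratios were 1.61 and 1.63 in the E11.5 AGM pair and 3.62 and 3.39 in the E9.5 yolk sac pair. Col4a5 at -2.45, Lama2 at -2.36, Lama1 at -1.72 and Nid1 at -1.21 were lower.

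Of 16 measured mesoderm transcription factors 7 were lower. Hand2, a factor of lateral mesoderm, had 16 and 241 counts, -3.50 (-4.33 to -2.77), and Tcf21 had 1 and 58, -5.45 (-10.78 to -2.91). Sox6 at -2.63 and Sox5 at -2.54 were also lower. Meis2 was the 1 higher member, with 165 and 106 counts, 1.05 (0.69 to 1.41), and its ratio in the E11.5 AGM pair was -2.04. Of the imprinted growth genes 10 of 18 were lower and 1, Phlda2 at 1.47 (0.42 to 2.60), higher. Igf2 had 1027 and 3237 counts, -1.25 (-1.35 to -1.14), while H19 at -0.82 was not called.

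**Figure D4:**
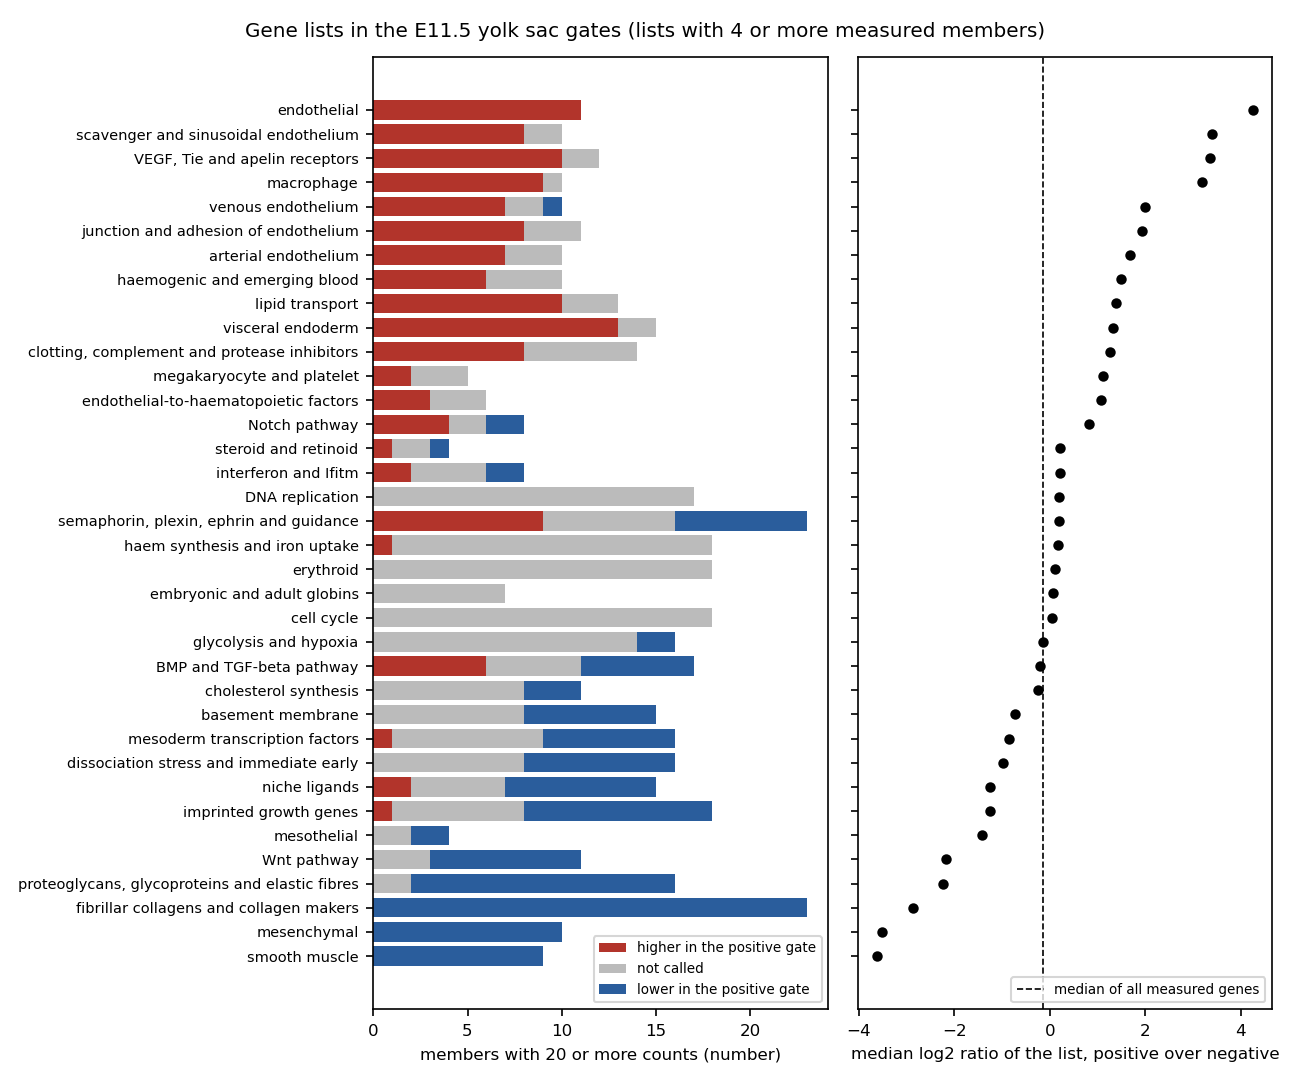
Gene lists in the E11.5 yolk sac gates, lists with few measured members left out. Bars give the number of measured members called higher, not called and called lower in the positive gate. Points give the median log2 ratio of each list, positive over negative gate, beside the median of all measured genes (dashed line). All 11 endothelial members, Cdh5 among them, were higher (median 4.26) and all 10 mesenchymal members lower (median -3.50). No erythroid or cell cycle member was called.

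Of 15 measured niche ligands 8 were lower and 2 higher. The lower ones were led by Dlk1, a Notch-like inhibitor, with 18 and 149 counts, -2.64 (-3.43 to -1.93), Bmp4 with 8 and 79, -2.89 (-4.15 to -1.85), Mdk with 15 and 122, -2.61 (-3.49 to -1.84), and Hgf with 8 and 70, -2.72 (-3.99 to -1.66). The higher ones were Edn1, endothelin, and Kitl, stem cell factor. Edn1 had 29 counts against 0, a ratio of 3.68 with the empty gate set to 3 counts (interval from 3.29 upward). Kitl had 41 and 20 counts, 1.45 (0.64 to 2.29). Vegfa with 9 and 20 counts and Angpt1 with 24 and 43 were not called.

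Of 40 textbook ligand and receptor pairs, 23 had both members measured. In 3 the ligand was lower and the receptor higher: Sema3e with Plxnd1, Csf1 with Csf1r and Tgfb2 with Tgfbr2. Plxnd1, a semaphorin receptor of endothelium, had 105 and 12 counts, 3.54 (2.67 to 4.54), and Sema3e 2 and 18, -2.76 (-5.91 to -0.70). Csf1 had 4 and 33 counts, -2.63 (-4.59 to -1.14). In 1 pair the ligand was higher and the receptor lower: Edn1 with Ednra, which had 3 and 43 counts, -3.43 (-5.76 to -1.79). In 5 pairs both were on 1 side, Kitl with Kit, Jag1 with Notch1 and Efnb2 with Ephb4 on the positive, Igf2 with Igf2r and Bmp4 with Bmpr1a on the negative. These are RNA levels of gates and show no signal between cells.

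In the Notch list 4 of 8 were higher, Notch4, Maml2, Jag1 and Notch1, and 2 lower, Dlk1 and Hes1, the latter a target of the pathway with 62 and 268 counts, -1.70 (-2.12 to -1.30). In the BMP and TGF-beta list 6 of 17 were higher, among them Tgfbr2 at 1.48 (0.92 to 2.07) and Smad1 at 1.41 (0.50 to 2.37), and 6 lower, among them Bmp5 at -3.76 (-6.86 to -1.80) and Bmpr1a at -1.79 (-2.64 to -1.02). Of 11 Wnt genes 8 were lower and none higher, with Sfrp1, a secreted inhibitor, at -3.19 (-4.09 to -2.41) and Fzd2, a receptor, at -3.46 (-5.80 to -1.82). Of 23 guidance genes 9 were higher and 7 lower. Robo4, the endothelial Robo receptor, had 36 and 3 counts, 3.99 (2.33 to 6.34), and Slit3, a Robo ligand, 48 and 604, -3.24 (-3.70 to -2.82).

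The cell cycle, DNA replication, glycolysis and cholesterol synthesis lists had medians near that of all genes. None of 18 cell cycle and none of 17 DNA replication genes was called, with medians of 0.05 and 0.20. Of 16 glycolysis genes 2 were lower, Slc2a1, a glucose transporter, at -1.15 (-1.74 to -0.59), and Pfkp at -1.09 (-2.18 to -0.11). Of 11 cholesterol synthesis genes 3 were lower, Cyp51, Sqle and Sc5d, from -1.16 to -1.07. In the list of immediate early and dissociation stress genes 8 of 16 were lower and none higher, among them Egr1 at -2.05 (-3.07 to -1.15), Hspa1a at -1.32 (-1.57 to -1.08), and Fos at -1.40 (-1.94 to -0.88). Of 13 lipid transport genes 10 were higher, led by Fabp4, a fatty acid carrier of capillaries, with 78 and 2 counts, 5.70 (3.79 to 8.77), 26 of them in 1 well. The list's median was 1.39, and Apoa1, Apoa2, Apoa4, Apob, Apoc1 and Apom are members of the visceral endoderm list already counted above. Of 14 clotting and complement genes 8 were higher, Thbd, the endothelial thrombomodulin, with 23 and 1 counts at 4.93 (2.31 to 10.30). Their median was 1.27. C1qa, C1qb, C1qc and F13a1 also belong to the macrophage list and Fgb to the visceral endoderm list. Of 8 interferon genes Bst2 at 2.37 and H2-D1 at 2.30 were higher, and Ifitm1 at -1.95 and Ifitm3 at -1.14 were lower. In the steroid and retinoid list Rbp4, also of the visceral endoderm list, was higher at 1.14 and Hsd11b2 at -3.58 lower.

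Most calls also appeared in another gate pair, and the count depended on which. Of the 724 genes called higher, 579 were measured in the E11.5 AGM pair, where 237 were higher and 58 lower. In the E9.5 yolk sac pair, 499 of 630 measured were higher and 14 lower, and in the E9.5 AGM pair 196 of 561 were higher and 67 lower. Of the 1008 genes called lower, 562 of 841 were lower in the E11.5 AGM pair and 10 higher, while in the E9.5 yolk sac pair 58 of 752 were lower and 313 higher. The background differs widely between the pairs. In the E11.5 AGM pair 6.49% of measured genes were called higher and 37.3% lower, in the E9.5 yolk sac pair 40.4% and 1.87%, and in the E9.5 AGM pair 6.89% and 20.2%. The all-gene medians of these pairs were -0.80, 0.82 and -0.38. These shares are read against those backgrounds only, and none was tested.

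A gene was taken as particular to the E11.5 yolk sac gates by a stricter rule. It had to be called here with at least 50 counts in the higher gate and in at least 10% of its wells. In each of at least 2 other gate pairs with 20 counts its ratio had to differ by at least 1, the same way, with an interval (from the counts, 0.5 added to each) that left out 0. Of 7765 genes, 8 (0.103%) were particular on the higher side and 64 (0.824%) on the lower side. With haemoglobin left out of all totals there were 7 (0.0901%) and 84 (1.08%), of which 3 and 60 were shared with the first count. No test stands behind these counts, since each pool is 1 sample.

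On the higher side, Lrp2, Fabp5 and Sparcl1 met the rule on both totals. Lrp2, the megalin receptor by which visceral endoderm takes up proteins, had 125 and 75 counts, 1.15 (0.72 to 1.58), against -0.51, -1.84 and -3.10 in the E11.5 AGM, E9.5 yolk sac and E9.5 AGM pairs, the first of which had only 17 counts and did not enter the rule. Fabp5, a fatty acid carrier, had 268 and 63 counts, 2.50 (2.10 to 2.92), against -0.83, 1.01 and -0.97. It was counted in 42.3% of positive and 15.3% of negative wells, at 336 CPM in endothelial wells and 136 in macrophage wells. Sparcl1, a matrix protein of vessels, had 101 and 18 counts, 2.90 (2.17 to 3.71), against 0.31, 1.69 and -1.71. The other 5, which did not meet the rule without haemoglobin, were Ttr, Clybl, Apoa1, S100g and Apoa2. Of these, 4 belong to the visceral endoderm list and rested partly on the single well above, without which Ttr and S100g were not called. Clybl, an enzyme of mitochondria, had 72 and 38 counts, 1.33 (0.75 to 1.94). Without haemoglobin in the totals, Plcb1, Rasal2, Cdk19 and Wwp2 met the rule in their place, with ratios on those totals of 3.44, 2.46, 1.72 and 1.59. Plcb1, a phospholipase of receptor signalling, had 94 and 12 counts, while its ratios on full totals were -1.01, 2.40 and -0.28 in the E11.5 AGM, E9.5 yolk sac and E9.5 AGM pairs.

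On the lower side, Anxa1 differed most. This annexin had 5 positive and 63 negative counts, -3.25 (-4.92 to -1.95), while in the E11.5 AGM it had 62 positive and 3 negative counts, 4.73, a difference of -7.98 (-9.98 to -5.98). Nrxn3, a neurexin, had 38 and 273 counts, -2.43 (-2.96 to -1.94), with 0.86, 2.29 and 2.19 in the other pairs. Adarb1, an RNA-editing deaminase, had 12 and 136 counts, -3.09 (-4.08 to -2.24), with 0.04, 1.97 and 0.07. Hapln1, a link protein of hyaluronan matrix, had 16 and 83 counts, -1.97 (-2.84 to -1.18), with 0.95, 3.78 and 3.74. For Nrxn3, Hapln1 and Adarb1 the ratios of all 3 other pairs were above 0, with Adarb1 only just so in both AGM pairs. The same held for Hacd4, Ehd2, Rcsd1, Adamts9 and Plp2 among the leading genes below, with no minimum of counts applied.

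The other 8 of the 12 leading genes were Hacd4, Ehd2, Cryab, Actg2, Rcsd1, Atp10a, Adamts9 and Plp2, with ratios here from -5.26 for Cryab to -1.18 for Ehd2. In wells with at least 1000 genes Ehd2 at -1.05 (-2.27 to 0.01) and Rcsd1 at -0.72 (-1.83 to 0.26) were not called, nor was Ehd2 at -0.98 on totals without haemoglobin, mitochondrial and Gm42418 rows. Cryab and Actg2 were also on the negative side of 0 in the E11.5 AGM and E9.5 yolk sac pairs, and here the farthest. In the E9.5 AGM pair they had too few counts to be measured, 1 and 5 for Cryab and 6 and 9 for Actg2. Adamts9, a protease of the extracellular matrix, had 24 and 144 counts, -2.18 (-2.86 to -1.54), against 0.24, 1.04 and 0.25. Matrix and basement membrane genes were among the remaining ones, for example Fn1, Nid1 and Sparc, the last with 417 and 1810 counts, -1.71 (-1.87 to -1.55). These 3 were chosen as examples after their values were seen.

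**Figure D5:**
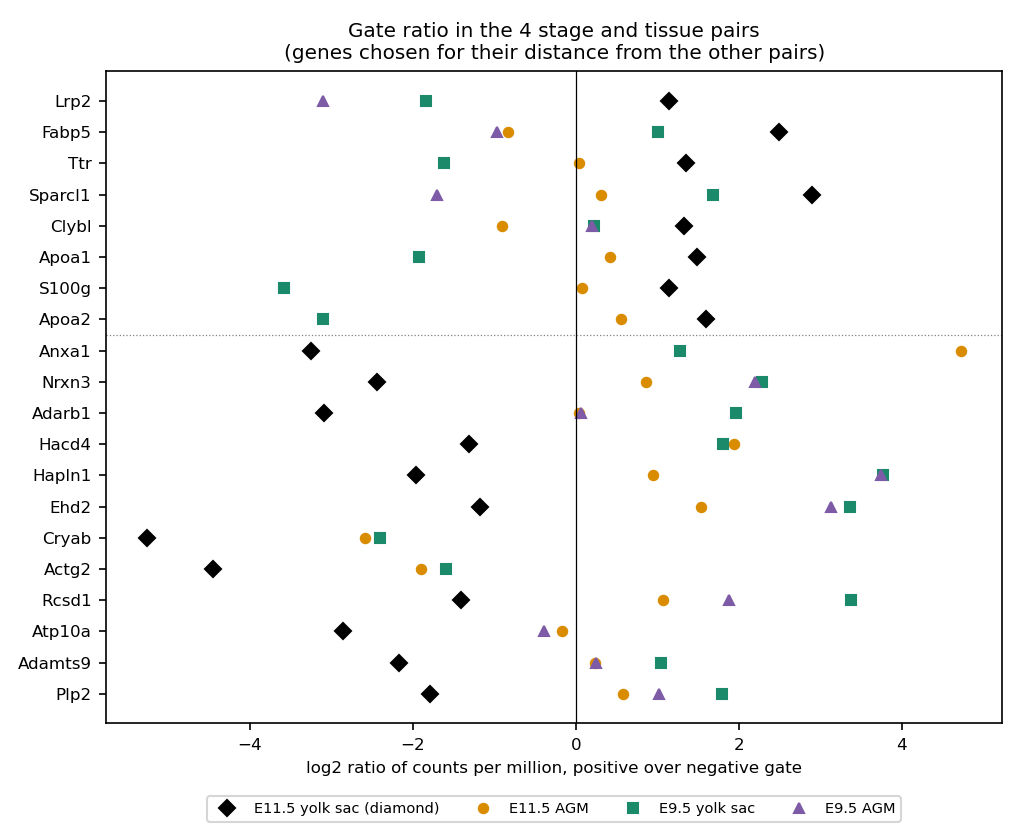
Log2 ratios of positive over negative gate in all 4 gate pairs for the genes particular to the E11.5 yolk sac pair, up to 12 in each direction. Nrxn3, Hapln1 and Anxa1 lie below 0 in the E11.5 yolk sac and above 0 in the other pairs shown.

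Some genes were called on opposite sides in the 2 tissues of E11.5. Of 7598 genes measured in both pairs, 58 (0.763%) were higher in the yolk sac and lower in the AGM positive gate, and 10 (0.132%) the other way. The first kind included Palld, an actin-binding protein, with 215 and 100 counts here, 1.51 (1.17 to 1.87), and 66 and 400 in the AGM, -2.24. Hmcn1, a matrix protein, had 83 and 17 counts, 2.70 (1.93 to 3.54), and 68 and 221 in the AGM, -1.34. Nrg1, a ligand of ErbB receptors, had 43 and 15 counts, 1.93 (1.05 to 2.88), and 18 and 74 in the AGM, -1.68. Dpysl3 at 2.32 and -2.48 and Tox at 2.41 and -1.80 rested on 38 and 25 counts here. Dixdc1 had 20 positive counts, 18 of them in 1 well. The second kind included Anxa1, then Ifitm1, an interferon-induced membrane protein, with 22 and 113 counts, -1.95 (-2.68 to -1.28), and 70 and 15 in the AGM, 2.59. Mgll, Hacd4, Tmem204 and Rcsd1 stood at -2.36, -1.31, -1.77 and -1.41 here and at 2.50, 1.95, 2.04 and 1.07 in the AGM. In wells with at least 1000 genes, Dpysl3 at 1.37 (-0.29 to 3.06), Tox at 3.18 with too few counts to be measured, Ifitm1 at -0.99 and Rcsd1 at -0.72 were not called in the yolk sac pair. The AGM pools differ in haemoglobin, 25.5% and 3.47%, against 35.6% and 32.9% in the yolk sac pools, and its part in these differences was not tested.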

How the data were processed

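Wells of E9.5 and E11.5 mouse yolk sac and AGM, sorted by VE-cadherin, were measured on 2 ICELL8 chips. For each chip the authors deposited a matrix of counts, whole numbers for every gene in every well. Reads had been handled with FastQC, cutadapt and STAR against mm10 (GRCm38), per the submitters' processing notes; versions, the counting tool, the annotation and any use of molecular identifiers are not given in the sources used here. The E11.5 table has 20823 gene rows, of which 4232 carry only an identifier (4172 matched to a symbol). Wells were assigned to pools by the tissue and gate in the deposited well table.

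Wells with at least 500 genes were kept and summed per pool with Python 3.11.15, pandas 2.3.3, numpy 2.4.6 and scipy 1.17.1. CPM ratios carry exact 95% conditional binomial intervals, and a pool at 0 was set to 3 counts. With 1 pool per gate no test across samples was made, and edgeR or DESeq2 tests were not run; edgeR 4.0.16 (TMM) and DESeq2 1.42.0 gave scaling factors only. No doublet caller was run; leaving out the deepest 5% of wells was an alternative. Promoters of 300 bases and gene positions came from RefSeq (GRCm38.p6). The interval and calling script was tested on simulated data. Members, 39 gene lists and 40 ligand and receptor pairs were chosen with earlier results of these data known.

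Named genes were the 14 in each direction whose interval bound was farthest from 0 (at least 50 counts in the higher gate and in 10% of its wells), up to 12 particular and 6 opposite genes in each direction, up to 4 called members of a list and its members not called, and Cdh5, Pecam1, Runx1, Kit, Ptprc and Csf1r. Mitochondrial, ribosomal protein, haemoglobin and unnamed genes were left out of the rule, and a few list members past the first 4 were added after their values were seen.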

Additional observations from a re-analysis of the deposited data

Results flagged for a closer look

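Genes called on opposite sides in the yolk sac and AGM gates of E11.5 are those with the largest smaller bound; the difference itself was not tested, as each gate is 1 pool. Higher in the yolk sac and lower in the AGM positive gate were Dixdc1 at 4.73 and -2.72, Palld at 1.51 and -2.24, Dpysl3 at 2.32 and -2.48, Tox at 2.41 and -1.80, Hmcn1 at 2.70 and -1.34, and Nrg1 at 1.93 and -1.68. Of the counts of Dixdc1 in the positive gate, 18 of 20 lay in 1 well, and without it no ratio can be given, as both gates are under 3 counts. Lower in the yolk sac and higher in the AGM were Anxa1 at -3.25 and 4.73, Ifitm1 at -1.95 and 2.59, Mgll at -2.36 and 2.50, Hacd4 at -1.31 and 1.95, Tmem204 at -1.77 and 2.04, and Rcsd1 at -1.41 and 1.07.

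The control wells, which no comparison of gates used, carried haemoglobin. It took 2.39% of counts in the E11.5 positive control wells of stem cell RNA and 23.8% in the negative control wells, all 47 of each kind having at least 1 haemoglobin count.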

How the results depend on the processing

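Over 11 other settings, none of 648 values of the 59 named genes reversed, 23 left the interval of the reported value and 11 lost or changed their call. Among these, Ttr was 0.95 and S100g 0.86 without the deepest 5% of wells, Runx1 0.88 with equal weight per well, Rcsd1 -0.72 and Ifitm1 -0.99 with at least 1000 genes per well. Of 465 list medians 1 reversed, that of the arterial list at -0.68 with at least 100 counts over both gates, and 15 left the interval. Counts of called genes moved by over 1.5 times with at least 100 counts, to 149 higher and 309 lower, and with at least 1000 genes (103 and 209 wells), to 642 lower beside 792 higher. Particular genes numbered 3 higher and 35 lower with 50 counts in all 3 other pairs, and 10 higher and 98 lower relative to each pair's median. Of those relative to the median, only 3 higher and 57 lower were among the reported 8 and 64.

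The median gate ratio of all genes was -0.0700 without haemoglobin in the totals, -0.00987 also without mitochondrial rows, 0.0650 also without Gm42418 (chosen after seeing the data), -0.0451 with TMM, -0.0551 with DESeq2 size factors, 0.0743 with 1000 genes, -0.16 with equal weight per well, -0.17 without the deepest 5% of wells and -0.17 without each gene's highest well. The cause was not tested. Leaving out the well with most visceral endoderm counts was also chosen after seeing the data. No paired analysis was possible because each gate is 1 pool without a replicate; for the same reason no replicate could be left out.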
